A study of Mus musculus with 18 samples.

Results

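The keratin genes were taken as every entry of the expression table whose symbol is KRT followed by a number and nothing else, in any letter case. The rule found 51 of the 23626 entries used, 25 of them type I keratins, 25 type II keratins and 1, Krt222, outside both types. It leaves out Krt6a, Krt6b, Krt33a and Krt33b, whose symbols end in a letter and whose highest levels in any library were 2.16, 1.27, 4.58 and 0.718 TPM, an abundance per transcript length that sums to the same total in every library. The 51 genes were followed through 18 messenger RNA libraries of mouse thyroid cells, each labelled as thyrocytes sorted for yellow fluorescent protein (YFP) at 20 weeks, from mice given no treatment. 4 tumour libraries carried BrafV600E, which keeps the kinase Braf active, together with K5-Tert, a transgene in which a keratin 5 promoter drives the telomerase gene Tert (K5-Tert tumours). 7 tumour libraries carried BrafV600E with Tert-123C>T, a changed base in the promoter of Tert itself (called Tert-123 tumours here), and 4 carried BrafV600E alone (Braf tumours). The remaining 3 libraries were single pools without BrafV600E, from K5-Tert, Tert-123C>T and Wildtype mice, although their source label also reads thyroid tumour. Neither the number of animals in a pool nor the driver of BrafV600E and YFP is given in the sources used here.

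Keratins form the intermediate filaments of epithelial cells, and each filament is built from pairs of an acidic type I and a basic type II keratin. Which pair a cell makes depends on its epithelium. Krt8 pairs with Krt18 in single-layered epithelia, often beside Krt7, Krt19 and Krt20. Krt5 pairs with Krt14 in the basal layer of stratified epithelia, and other members serve the upper epidermis, the cornea, the mouth lining or the hair and nail. In human pathology, stains for these proteins help to assign a tumour to its tissue of origin.

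Some features of the libraries bear on all values that follow. The noncoding RNA Rpph1 took 43.7% to 68.8% of the TPM of a library, and between 10958 and 15045 genes reached 1 TPM. The summed level of 10 thyrocyte markers was 381 to 492 TPM in K5-Tert tumours, 377 to 1231 TPM in Tert-123 tumours and 595 to 756 TPM in Braf tumours, against 31664, 26222 and 32284 TPM in the K5-Tert, Tert-123C>T and Wildtype pools. Most of that sum was Tg, the thyroid hormone precursor, at 81.9 to 511 TPM in tumours, against 25676 to 31240 TPM in pools. The thyroid transcription factor genes Nkx2-1 and Hhex were not lower in this way. Nkx2-1 stood at 52.4 to 271 TPM in tumours, against 39.7 to 135 TPM in pools. Hhex stood at 41.4 to 194 TPM in tumours, against 30.2 to 104 TPM in pools. Pax8 and Foxe1, also in the list, lay lower in tumours with some overlap. Pax8 stood at 16.8 to 151 TPM, against 126 to 460 TPM in pools, and Foxe1 at 28.3 to 98.1 TPM, against 69.8 to 180 TPM. In the limma comparison for the Braf mutation described below, 6 of the 10 markers were tested. Its filter asks for 10 TPM in at least 4 libraries, so a marker high in the 3 pools alone, such as Slc5a5, could not be tested. As deposited, 0 of the 6 rose and 4 fell, where 15.4% of all 7825 genes rose and 10% fell. Their median log2 difference was -1.59, against 0.07 for all genes. With the scaling factors of the TMM type used below, 1 rose and 4 fell, where 23.9% and 17.2% of all genes did. K5-Tert tumours 2, 3 and 4 stood apart with low Malat1, a nuclear RNA, with values of 1191, 1908 and 1050.1 TPM against a range of 5762 to 7496 TPM for the Braf tumours. In bulk libraries like these, fewer cells of a type and less RNA per cell cannot be told apart.

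Keratin expression was concentrated in 5 genes of simple epithelia. Krt18, Krt8, Krt19, Krt7 and Krt20 were the only members with a mean of at least 10 TPM over the 18 libraries, while 9 averaged 1 to 10 TPM and 37 averaged under 1 TPM. These 5 genes made up 95.9% to 99.4% of the summed keratin level in the 15 tumours, and 97.8%, 91.0% and 95.1% in the K5-Tert, Tert-123C>T and Wildtype pools. All 3 basal-layer members (Krt5, Krt14 and Krt15) reached 10 TPM in at least 1 library, with a highest level of 61.8 TPM. Of the stress and repair keratins, Krt17 reached 15.5 TPM and Krt16 stayed low. None of the 23 hair and nail keratins reached 10 TPM (highest 4.93 TPM), nor did the 4 suprabasal epidermal members (highest 4.46 TPM), the 3 of stratified mucosa (highest 1.96 TPM) or Krt12 of the cornea (highest 3.23 TPM). In all, 41 members stayed under 10 TPM in every library, the highest of them Krt42 at 5.70 TPM, and 9 never reached 1 TPM.

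**Figure D1:**
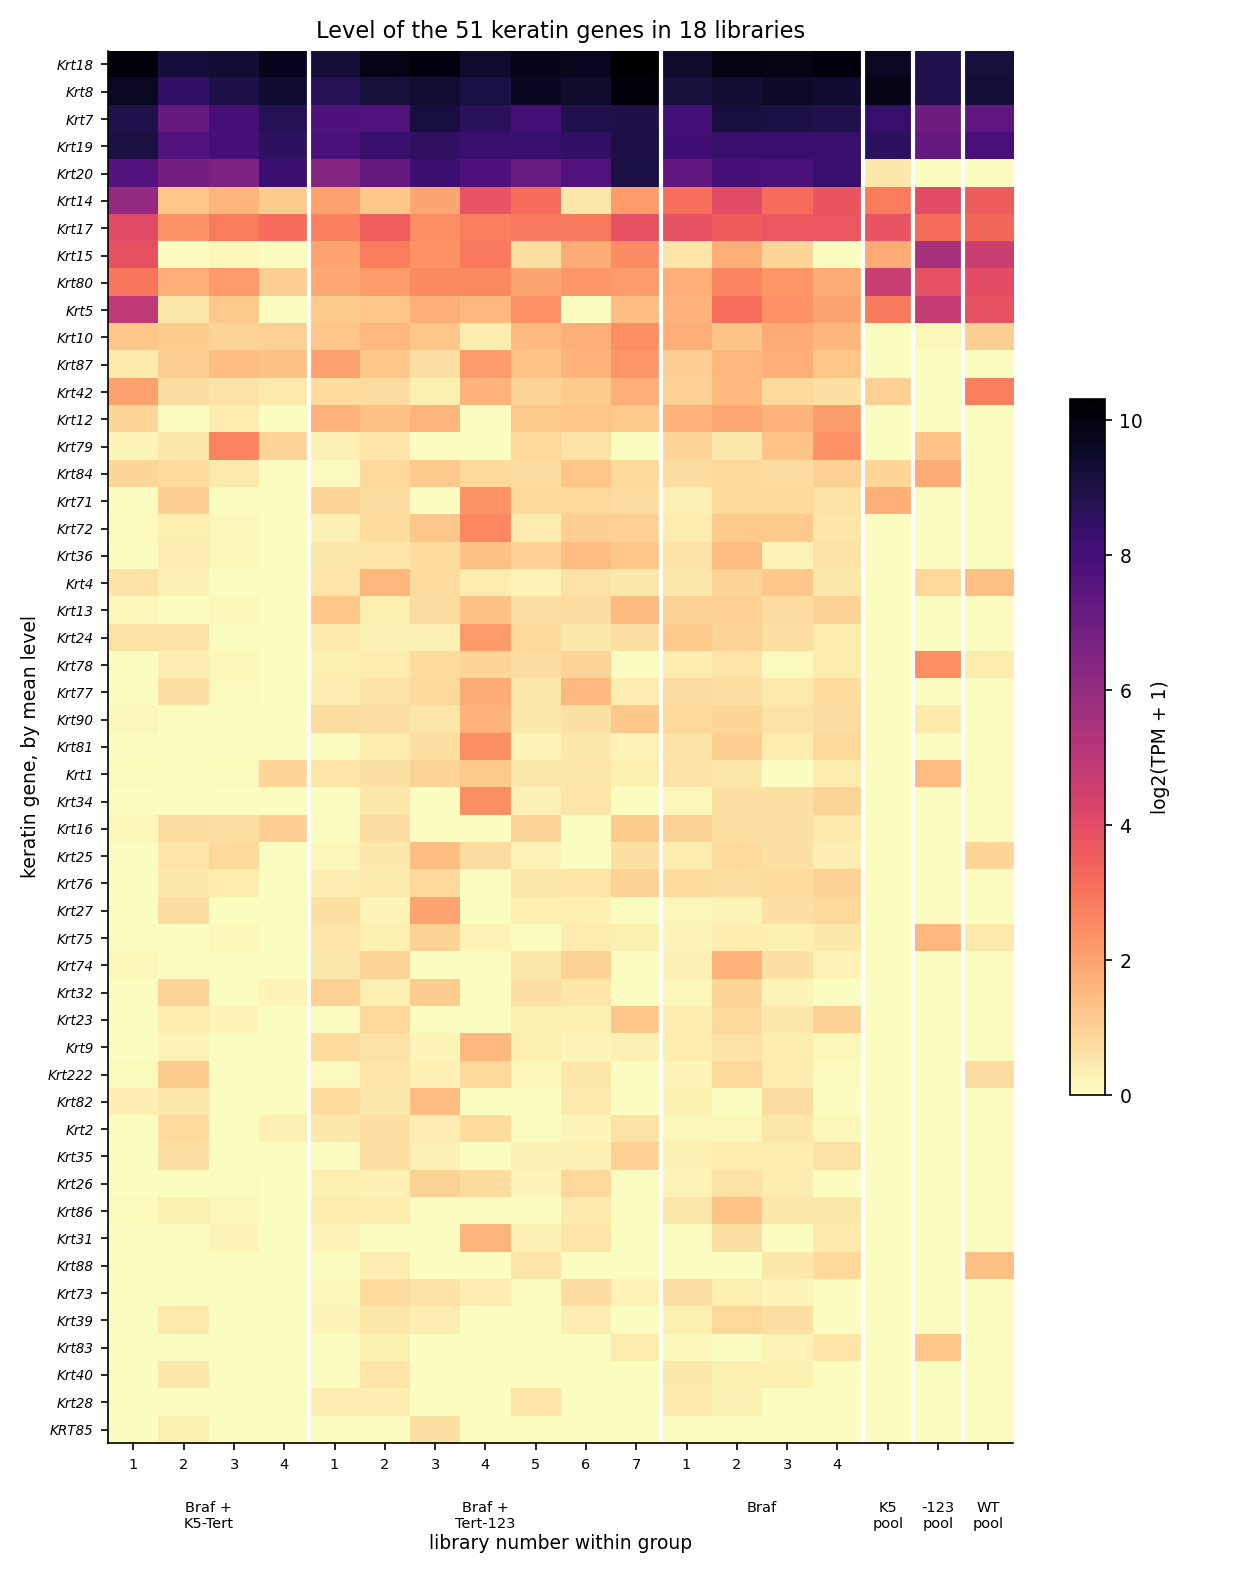
Level of each of the 51 keratin genes (rows, ordered by mean level) in each of the 18 libraries (columns), as log2(TPM + 1). Darker cells are higher. The simple-epithelium rows at the top are dark, except Krt20 in the 3 pools, while 41 rows stay under 10 TPM in every library.

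The genes on which the results turn are shown by the 250 bases before their annotated start, read from RefSeq on the GRCm38.p6 build and written 5′ to 3′ along the strand of the gene. Krt20 is shown because it had the widest difference between tumours and pools of the members tested. Its stretch lies at chr11:99438154-99438403 on the minus strand. Krt8 (chr15:102004343-102004592, minus strand) and Krt18 (chr15:102027966-102028215, plus strand) are shown as the most abundant pair, which lies side by side on chromosome 15. Krt5 (chr15:101712906-101713155, minus strand) is shown because a promoter of this gene drives the transgene. The fragment used in the transgene is not given in the sources used here. Capitals mark the letters TATAAA.
Krt20: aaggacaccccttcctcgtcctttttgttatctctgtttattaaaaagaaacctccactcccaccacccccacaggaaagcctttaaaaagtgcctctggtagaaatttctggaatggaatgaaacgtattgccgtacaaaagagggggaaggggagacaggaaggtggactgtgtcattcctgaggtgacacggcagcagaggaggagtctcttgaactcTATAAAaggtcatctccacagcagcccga
Krt8: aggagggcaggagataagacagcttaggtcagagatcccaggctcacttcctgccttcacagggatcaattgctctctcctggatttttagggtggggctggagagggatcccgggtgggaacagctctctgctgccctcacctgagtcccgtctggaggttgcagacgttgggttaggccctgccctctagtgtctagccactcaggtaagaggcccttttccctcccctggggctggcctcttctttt
Krt18: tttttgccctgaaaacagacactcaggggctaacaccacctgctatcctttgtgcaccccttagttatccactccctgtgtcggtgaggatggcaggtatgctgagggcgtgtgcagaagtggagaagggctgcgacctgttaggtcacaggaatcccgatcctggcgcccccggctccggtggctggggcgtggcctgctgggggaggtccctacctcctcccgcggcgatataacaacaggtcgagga
Krt5: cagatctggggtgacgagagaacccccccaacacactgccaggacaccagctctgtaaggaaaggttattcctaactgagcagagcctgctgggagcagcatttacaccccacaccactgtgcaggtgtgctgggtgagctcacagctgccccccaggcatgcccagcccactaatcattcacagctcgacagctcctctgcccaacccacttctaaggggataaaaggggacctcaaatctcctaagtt
TATAAA, the core of the classical TATA box, stood 29 bases before the start of Krt20 and was not found in these letters in the stretches of Krt8, Krt18 and Krt5. Searched on both strands, TATAAA was present in 16 of 36 keratin promoters (44.4%), which belong to 35 members, and in 12.4% of all 32851 promoters of that length. TGANTCA, the letters of an AP-1 site, was present in 5.56% of keratin promoters and 6.75% of all. CCGGAA, the core of an ETS site, was present in 2.78% and 12% of them, and CCACACCC, a KLF-type box, in 8.33% and 3.2%. These matches describe the letters only.

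Krt18 and Krt8, the type I and type II partners of the simple-epithelial filament, were the most abundant keratins. Krt18 stood at 1086, 595, 627 and 878 TPM in the K5-Tert tumours, at 604 to 1274 TPM (median 899.6) in the Tert-123 tumours and at 697, 969, 963 and 1039.8 TPM in the Braf tumours, against 795, 490.0 and 572 TPM in the K5-Tert, Tert-123C>T and Wildtype pools. Krt8 stood at 804, 359, 494 and 679 TPM in the K5-Tert tumours, at 419 to 1129.6 TPM (median 637) in the Tert-123 tumours and at 579.6, 646, 732 and 672 TPM in the Braf tumours, against 950.2, 479 and 611 TPM in the same pools. For both genes the tumour and pool values overlapped. Krt18 was the highest keratin in all 15 tumours and in 1 pool, and Krt8 was the highest in the K5-Tert and Wildtype pools.

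Krt19, a type I keratin of simple epithelia that has a shortened tail, and Krt7, a type II keratin of ducts and glands, came next. Krt19 stood at 550.4, 196, 258 and 393 TPM in the K5-Tert tumours, at 239 to 511 TPM (median 311) in the Tert-123 tumours and at 279, 324, 319 and 321 TPM in the Braf tumours, against 388, 143 and 248 TPM in the K5-Tert, Tert-123C>T and Wildtype pools. Krt7 stood at 479.8, 139.7, 252 and 436 TPM in the K5-Tert tumours, at 209.6 to 555 TPM (median 405) in the Tert-123 tumours and at 266, 551, 529 and 477 TPM in the Braf tumours, against 331, 124 and 167 TPM in the same pools. Only the Tert-123C>T pool lay below every tumour for each of these genes, and the K5-Tert pool lay inside the tumours' range. Krt19 exceeded Krt7 in 7 tumours with the order Krt18, Krt8, Krt19, Krt7 and Krt20, and Krt7 exceeded Krt19 in 7 others.

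Krt20, a type I keratin known from gut lining, urothelium and Merkel cells, was present in every tumour and nearly absent from the pools. It stood at 204, 112, 96.0 and 298 TPM in the K5-Tert tumours, at 79.3 to 528 TPM (median 205) in the Tert-123 tumours and at 158, 254, 234 and 316 TPM in the Braf tumours. The K5-Tert pool had 0.369 TPM, and the gene was listed at 0 in the Tert-123C>T and Wildtype pools. The lowest tumour therefore lay far above the highest pool, and the groups did not overlap. In one tumour, Tert-123 tumour 7, Krt20 exceeded both Krt19 and Krt7.

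**Figure D2:**
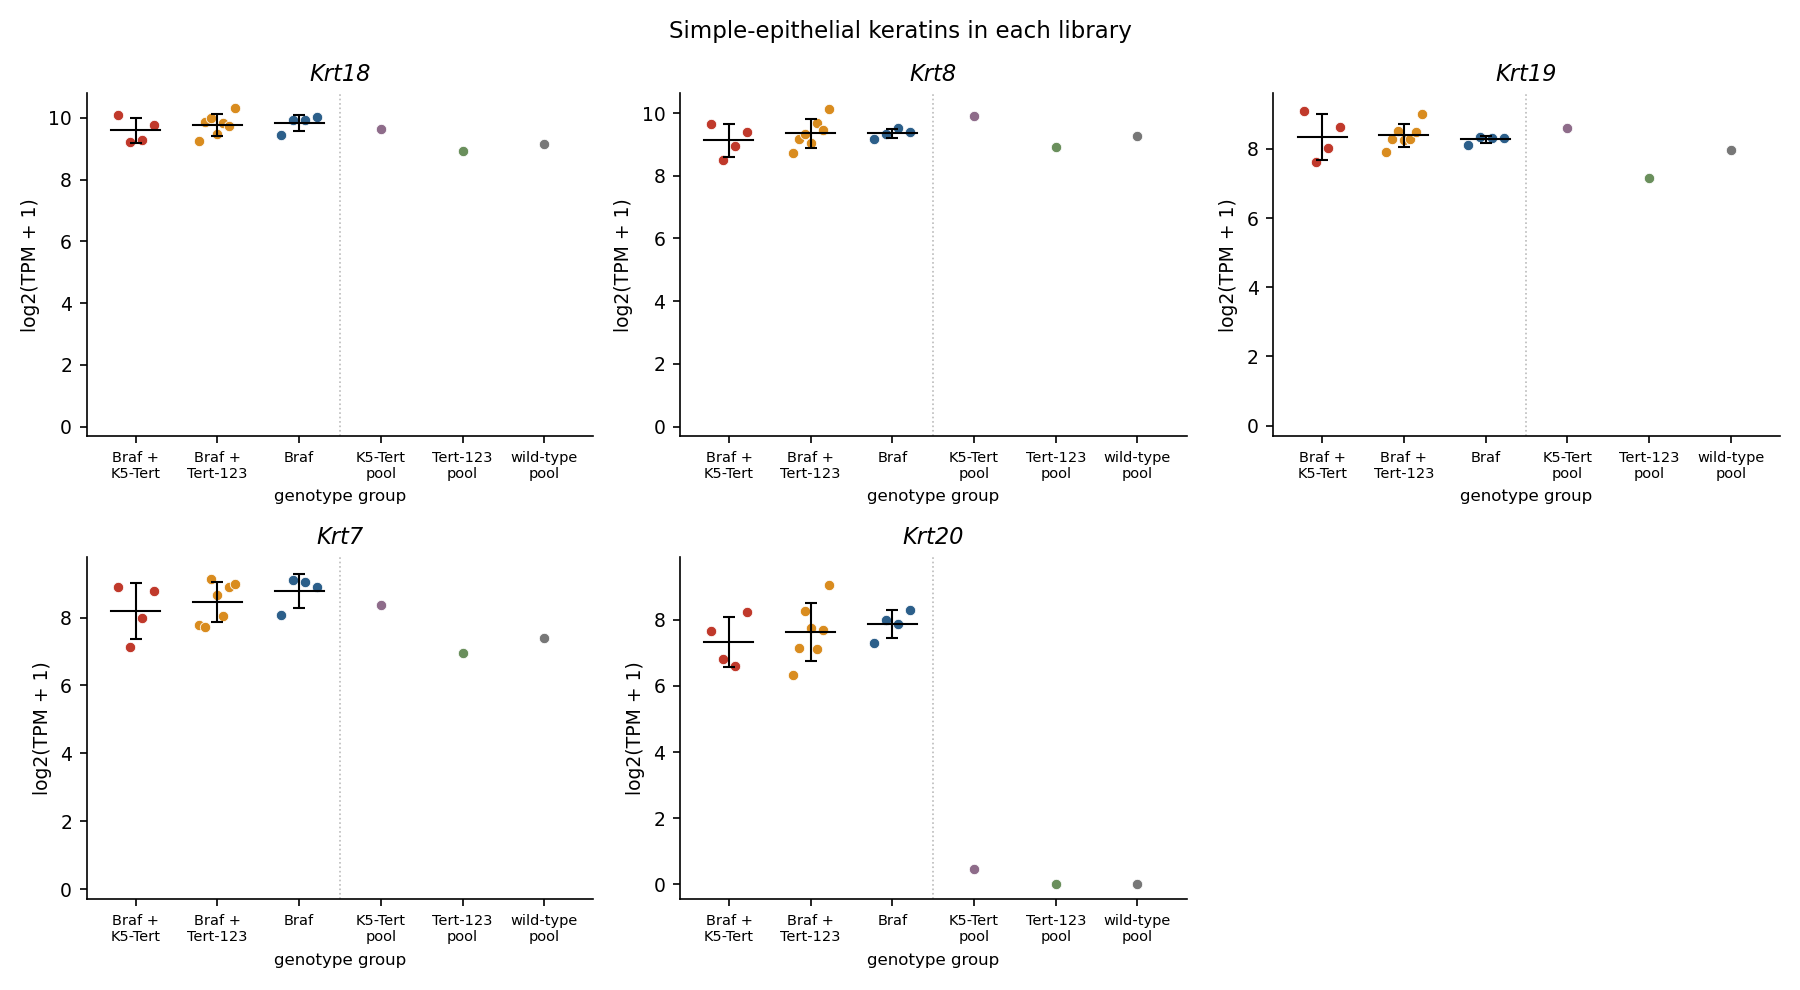
Levels of the 5 simple-epithelial keratins as log2(TPM + 1), with K5-Tert, Tert-123 and Braf tumours left of the dotted line and the 3 single pools right of it. Points are libraries, and bars show the mean and SD of groups with more than 1 library. Krt20 lies between 79.3 and 528 TPM in the tumours and at 0 to 0.369 TPM in the pools, while the other 4 genes overlap between tumours and pools.

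Whether the Braf mutation went with keratin level was tested over all 18 libraries with limma, on log2(TPM + 1), with the Tert allele as a covariate, among genes at 10 TPM or more in at least 4 libraries. 7 members passed this filter (Krt7, Krt8, Krt14, Krt17, Krt18, Krt19 and Krt20) and 44 did not. The fit takes the effect of a Tert allele to be the same with and without the Braf mutation, which was not tested. Each allele has 1 pool, so the spread the fit uses comes mostly from the tumours. Krt20 alone passed the threshold of an adjusted p under 0.05 and rose, 1 of 7, against 15.4% of all 7825 genes tested. None of the 7 fell by limma, against 10% of all genes, and the 3 members with an unadjusted p under 0.05 (Krt20, Krt7 and Krt18) were all higher. The filter asks for 4 libraries and there are 3 pools, so a gene at 10 TPM in the pools alone, such as Krt80, could not be tested. The lack of falls among the 7 is therefore partly set by the filter. Krt20 passed the filter through the tumours alone, and was thus selected on the difference tested. With no filter Krt20 was called as well. Krt20 was higher by 7.46 (SE 0.399, 95% interval 6.63 to 8.29) on the log2(TPM + 1) scale, with a limma adjusted p of 7.55e-12. On that scale a pool at 0 is given the pseudocount of 1, so this value is not a fold change of the RNA. Counted as a share, 1 of 7 members lies near the background, and the result concerns Krt20. The keratin median was 0.45 and the median of all genes 0.07 on the same scale.

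The other 4 simple keratins did not pass in this comparison. The log2 difference between Braf-mutant and other libraries was 0.92 for Krt7 (SE 0.371, limma adjusted p = 0.0735), 0.50 for Krt18 (SE 0.228, limma adjusted p = 0.118) and 0.45 for Krt19 (SE 0.276, limma adjusted p = 0.249). For Krt8 it was -0.055, with a 95% interval of -0.61 to 0.50. Krt7 did pass with scaling factors of the TMM type (0.95, limma adjusted p = 0.0147), under quantile normalization, without Rpph1 and with the length trend removed (limma adjusted p = 0.0364, 0.0251 and 0.0228), and without the K5-Tert pool (1.44, limma adjusted p = 0.0121), the pool in which it was highest, or K5-Tert tumour 2 (1.05, limma adjusted p = 0.0195). Krt18 passed with the TMM-type factors, without Rpph1 and without that pool, at 0.53, 0.51 and 0.75 (limma adjusted p = 0.0319, 0.0318 and 0.0353). Without the 3 K5-Tert tumours with low Malat1, Krt7, Krt18 and Krt19 all passed, at 1.23, 0.68 and 0.73 (limma adjusted p = 0.00768, 0.0167 and 0.0147), which was the only setting in which Krt19 did. Tumours and pools also differ in pooling and in summed thyrocyte marker level, and these cannot be told apart from the Braf mutation.

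Tumours and pools also differed in other marker levels, and whether these varied with Krt20 from tumour to tumour was not tested. The summed level of 7 macrophage markers was 198 to 4943 TPM in tumours, against 53.0 to 257 TPM in pools, and that of 5 fibroblast markers 86.1 to 2264 TPM, against 33.4 to 295 TPM. The 4 C cell markers ran the other way, at 4.08 to 43.6 TPM in tumours, against 246 to 2067 TPM in pools. So did the 4 endothelial markers, at 9.15 to 95.6 TPM, against 78.8 to 751 TPM. Vim, the intermediate filament protein of mesenchymal cells, stood at 168 to 1937 TPM in the 15 tumours, against 32, 239.8 and 48.7 TPM in the K5-Tert, Tert-123C>T and Wildtype pools, and was higher by 3.12 (SE 0.571) on the log2 scale (limma adjusted p = 0.000268). The macrophage, fibroblast and endothelial sums and Vim overlapped between tumours and pools. The C cell sum and the thyrocyte marker sum given above did not overlap, as was also the case for Krt20. The part of all these markers in the Krt20 result was not tested. In the 4 Braf tumours alone Krt20 averaged 241 ± 65.3 TPM (SD, n = 4), while Vim averaged 696 ± 125 TPM.

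The balance of type I and type II keratins was also higher in the tumours. The summed type I level divided by the summed type II level averaged 1.5 ± 0.214 over the 4 K5-Tert tumours, 1.40 ± 0.184 over the 7 Tert-123 tumours and 1.33 ± 0.108 over the 4 Braf tumours (SD), against 0.917, 1.07 and 1.08 in the K5-Tert, Tert-123C>T and Wildtype pools. The lowest tumour ratio, 1.21, lay above the highest pool. Krt20 made up 8.41% to 22.5% of the type I level in tumours, against 0.0306% in the K5-Tert pool and 0% in the other pools. Without Krt20 the ratio was 1.03 to 1.59 in tumours, against 0.917 to 1.08 in pools, so that the groups overlapped. The ratio of Krt18 to its partner Krt8 was 1.09 to 1.66 in tumours, against 0.837, 1.02 and 0.936 in the 3 pools, without overlap. The ratio of Krt7 to Krt8 was 0.318 to 0.872 in tumours, against 0.349, 0.258 and 0.273, and overlapped. These ratios were examined after the levels had been seen and carry no test.

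**Figure D3:**
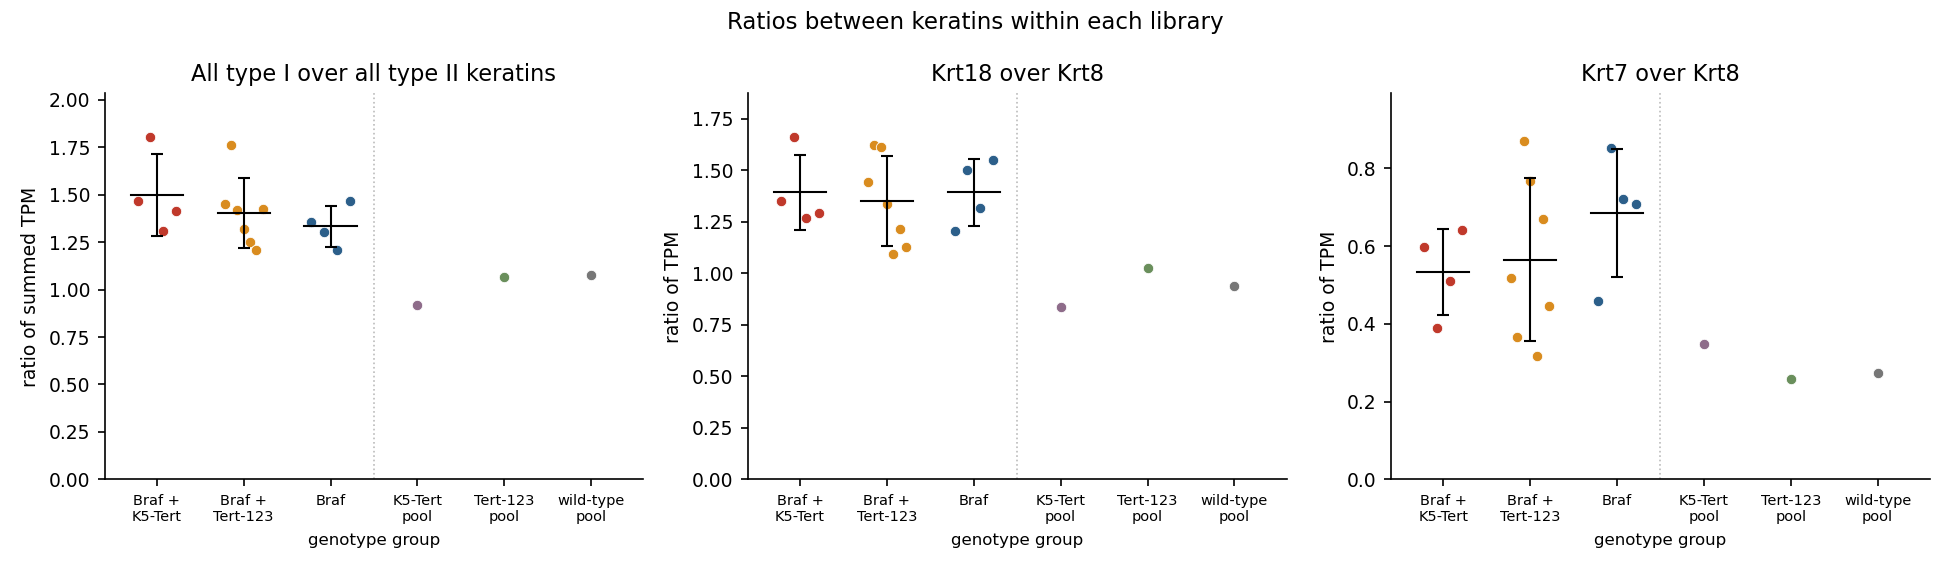
Ratios of keratin levels in each library, with the axis starting at 0, for K5-Tert, Tert-123 and Braf tumours and the 3 pools. The type I to type II ratio is 1.21 to 1.80 in tumours and 0.917 to 1.08 in pools, and the Krt18 to Krt8 ratio is 1.09 to 1.66 in tumours and 0.837 to 1.02 in pools.

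In the genome, 24 type I members with an annotated place and Krt222 lie on mouse chromosome 11, while 24 type II members and the type I gene Krt18 lie on chromosome 15. Krt20 stood alone among its neighbours. Its nearest keratin genes on either side, Krt12 and Krt23, had highest levels of 3.23 and 1.31 TPM in any library, and the next, Krt10 and Krt39, 4.46 and 0.794 TPM. Beside Krt7 lie Krt80, which reached 24.5 TPM in a pool but 6.54 TPM at most in a tumour, and Krt87, which reached 3.68 TPM.

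Krt80 was lower in tumours than in pools, and the basal-layer keratins overlapped between them. Krt80, a type II keratin found in many epithelia near desmosomes, stood at 6.54, 2.28, 3.45 and 1.04 TPM in the K5-Tert tumours, at 2.71 to 4.80 TPM (median 3.50) in the Tert-123 tumours and at 2.33, 5.25, 3.75 and 2.49 TPM in the Braf tumours, against 24.5, 13.9 and 14.7 TPM in the K5-Tert, Tert-123C>T and Wildtype pools. Every tumour lay below every pool. Over all 51 members 1 was lower without overlap and 2 were higher. Among the 7825 genes tested at 10 TPM, 5.69% were lower in this way, but Krt80 is not one of them. No share was computed for genes at its levels. Krt15, a type I basal keratin also known from hair follicle stem cells, stood at 13.5, 0, 0.108 and 0 TPM in the K5-Tert tumours, at 0.579 to 6.30 TPM (median 4.11) in the Tert-123 tumours and at 0.469, 2.26, 0.806 and 0 TPM in the Braf tumours, against 2.56, 44.6 and 23.4 TPM in the same pools. The K5-Tert pool lay inside the tumours' range, and the other 2 pools above it.

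Krt5, the type II basal keratin, stood at 29.2, 0.412, 1.21 and 0 TPM in the K5-Tert tumours, at 0 to 4.20 TPM (median 1.61) in the Tert-123 tumours and at 2.10, 7.48, 4.10 and 2.76 TPM in the Braf tumours, against 6.07, 26.1 and 13 TPM in the K5-Tert, Tert-123C>T and Wildtype pools. Its type I partner Krt14 stood at 61.8, 1.37, 2.05 and 1.09 TPM in the K5-Tert tumours, at 0.416 to 12.6 TPM (median 3.10) in the Tert-123 tumours and at 7.40, 15, 8.06 and 12.3 TPM in the Braf tumours, against 5.97, 15.5 and 10.4 TPM in the same pools. Both genes had their highest value in K5-Tert tumour 1, and tumours and pools overlapped.

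**Figure D4:**
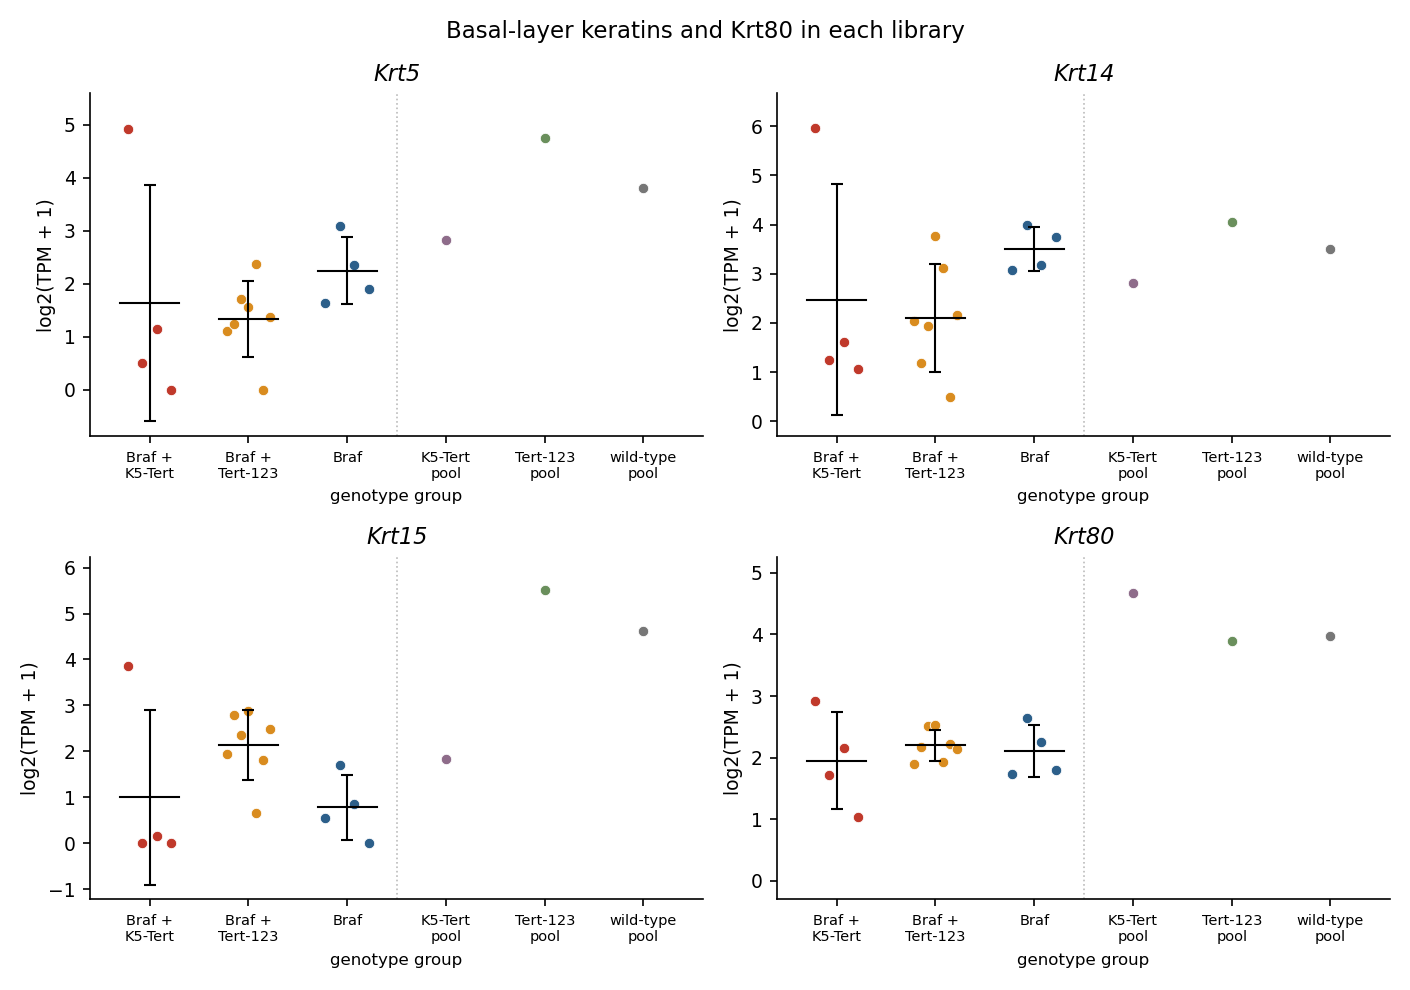
Levels of basal-layer and related keratins as log2(TPM + 1), with K5-Tert, Tert-123 and Braf tumours left of the dotted line and the 3 single pools right of it. Bars show mean and SD on that scale, so a bar can reach below 0. K5-Tert tumour 1 stands above the other K5-Tert tumours for Krt5 (29.2 TPM), Krt14 (61.8 TPM) and Krt15 (13.5 TPM).

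With the filter lowered to 1 TPM in at least 4 libraries, 18 members could be tested for the Braf mutation. As before, the tumours alone can pass a gene through this filter, but the 3 pools alone cannot. 4 rose and 3 fell, against 14.2% and 10.3% of 14711 genes, so the counts themselves lie near the background. Krt80 fell by 2.08 on the log2 scale (SE 0.319, limma adjusted p = 5.24e-05) and passed in all 22 alternatives run. Krt15 fell by 2.70 (SE 0.652, limma adjusted p = 0.00412) and Krt5 fell by 2.10 (SE 0.675, limma adjusted p = 0.0269). The Krt15 call was lost without the Wildtype pool (limma adjusted p = 0.0646). The Krt5 call was lost without that pool (limma adjusted p = 0.0592) or without the Tert-123C>T pool (limma adjusted p = 0.251). The Tert-123C>T pool also had the highest summed endothelial (751 TPM), C cell (2067 TPM) and parathyroid markers (642 TPM) of any library. It was highest as well for airway (136 TPM) and T cell markers (160 TPM). The airway sum was 0 TPM in the K5-Tert pool and 58.9 TPM in the Wildtype pool, so the pools had the same order as for Krt5 and Krt15. In the tumours it was 11.7 to 69.3 TPM. The part of all these markers in the Krt5 and Krt15 results was not tested.

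The members that rose at this filter, other than Krt20, were at low levels. Krt87, a hair-type type II keratin, stood at 0.334 to 3.68 TPM in the tumours and was listed at 0 in all 3 pools (log2 difference 1.34, limma adjusted p = 0.00337). Krt12, the corneal type I keratin, stood at 0 to 3.23 TPM in the tumours and was listed at 0 in all 3 pools (1.09, limma adjusted p = 0.0183). Krt10, the suprabasal type I keratin, stood at 0.295 to 4.46 TPM in the tumours, against 0, 0.111 and 1.06 TPM in the K5-Tert, Tert-123C>T and Wildtype pools (0.96, limma adjusted p = 0.0271). Krt87 and Krt12 reached 1 TPM in no pool, so they passed the filter through the tumours alone. The filter thus selected on the difference compared, and the calls of Krt87 and Krt12 are no support for it. The calls of Krt87, Krt12 and Krt10 were all lost under quantile normalization (limma adjusted p = 0.0539, 0.162 and 0.392). The Krt12 call was also lost without the Tert-123C>T or the Wildtype pool (limma adjusted p = 0.0775 and 0.188), and the Krt10 call without the K5-Tert or the Tert-123C>T pool (limma adjusted p = 0.073 and 0.157) or with the length trend removed (limma adjusted p = 0.0755). Of the 41 members under 10 TPM everywhere, 38, 32 and 33 were listed at 0 in the K5-Tert, Tert-123C>T and Wildtype pools. Of these 41, 1 was higher in every tumour than in every pool and 0 were lower, against 1.99% and 1.06% of the 12590 genes at such levels. Of the 7 members tested at 10 TPM, Krt20 was higher in every tumour than in every pool and 0 were lower, against 5.71% and 5.69% of the 7825 genes tested. Krt87 was the 1 among the 41, and Krt80 belongs to neither set.

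Among the tumours, the question was whether the K5-Tert transgene or the mutated Tert promoter went with another keratin level. Against Braf tumours, K5-Tert tumours showed 0 of 7 members higher or lower by limma over the 3 tumour groups, and 0 at an unadjusted p under 0.05, while 0.587% of 7498 genes rose and 21.9% fell. The log2 differences were -1.02 for Krt14 (SE 0.846, 95% interval -2.79 to 0.74), -0.58 for Krt17, -0.58 for Krt7, -0.54 for Krt20, -0.23 for Krt18, -0.23 for Krt8 and 0.060 for Krt19. Their limma adjusted p-values lay between 0.220 for Krt17 and 0.886 for Krt19. The median of all genes was itself at -0.48, and at 0.068 with scaling factors of the TMM type. With those factors Krt18 and Krt8 were at 0.35 each, Krt7 at 0.0042, Krt20 at 0.038 and Krt19 at 0.64 (limma adjusted p = 0.0585 for Krt19), so the signs of 4 members turned. As deposited, the 95% interval of each of the 7 included 0.

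**Figure D5:**
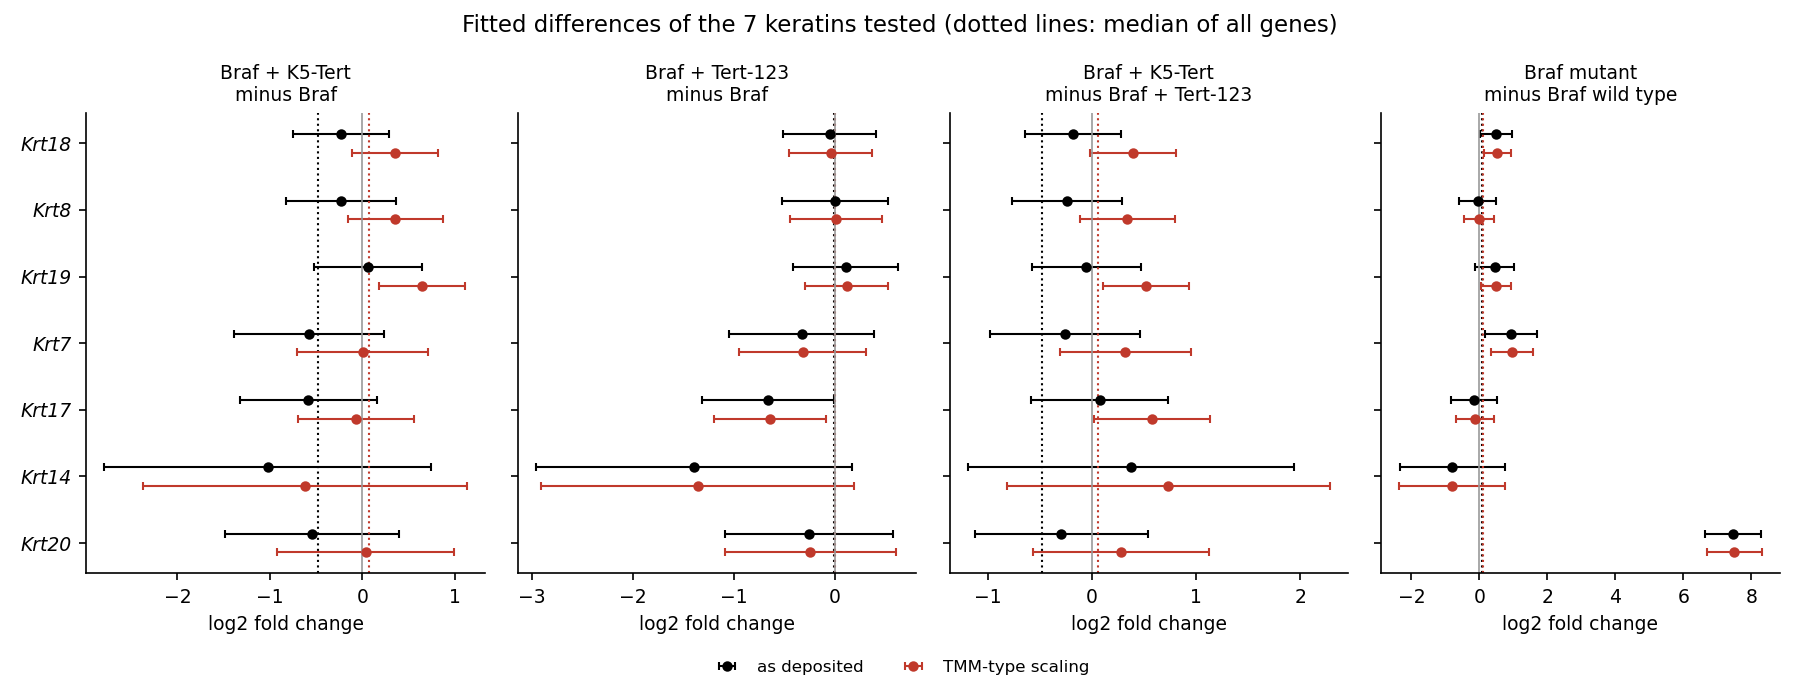
Log2 differences with 95% intervals for the 7 keratins tested in each comparison, as deposited (black) and with scaling factors of the TMM type (red), the genotype named first over the one named second. Dotted lines mark the median of all genes. Krt20 stands at 7.46 for the Braf mutation, and the differences between tumour groups as deposited lie between -1.40 and 0.37, both for Krt14.

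1 library decided the basal and repair keratins of the K5-Tert group. K5-Tert tumour 1 had Krt14 at 61.8 TPM, against 1.09 to 2.05 TPM in the other 3 K5-Tert tumours and 7.40 to 15 TPM in the Braf tumours. It also had the highest Krt17, a type I keratin of wound repair, at 15.5 TPM, against 4.04, 5.97 and 7.71 TPM in the other K5-Tert tumours and 12.8, 10.4, 11.5 and 12 TPM in the Braf tumours. Without this tumour, Krt14 fell by 2.19 and Krt17 fell by 0.91 on the log2 scale in K5-Tert against Braf tumours (limma adjusted p = 0.0103 and 0.0291). In that setting 46.9% of all 7498 genes were lower and the median of all genes was -0.65, so 2 of 7 members lies below the background. With TMM-type factors and without this tumour neither call held, at -1.65 for Krt14 and -0.22 for Krt17 (limma adjusted p = 0.0564 and 0.633). The 3 remaining tumours are the ones with low Malat1, and their part in the result was not tested. The same tumour had Col17a1, a basal cell anchor, at 11.3 TPM and Dsg3, a desmosomal cadherin, at 2.05 TPM. Col17a1 was at most 2.55 TPM and Dsg3 at most 1.17 TPM in the other 17 libraries. Both genes were chosen after values were seen, and other keratinocyte and squamous markers set this tumour apart less or not at all. Trp63 stood at 13.4 TPM, against 19.6 TPM in Tert-123 tumour 3, and Sfn at 128 TPM, against 225 TPM in Tert-123 tumour 7. Ivl stood at 4.48 TPM, against 9.44 to 28.4 TPM in the Braf tumours. Tgm1 and Perp were highest in this tumour, at 86.3 and 55.5 TPM, with 75 and 53.5 TPM next.

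Krt5 itself was compared by exact two-sided permutation tests of log2(TPM + 1), since it did not pass the filter. The difference between K5-Tert and Braf tumours was -0.61 (exact p = 0.629), and without K5-Tert tumour 1 it was -1.70 (exact p = 0.0286, the smallest that 3 against 4 libraries allow). Tert-123 tumours differed from Braf tumours by -0.90 (exact p = 0.0667), and without Tert-123 tumour 5 by -1.08 (exact p = 0.0143). K5-Tert tumours differed from Tert-123 tumours by 0.30 (exact p = 0.794). Tert, in contrast, was higher in K5-Tert than in Braf tumours by 2.5 (exact p = 0.0286) and higher than in Tert-123 tumours by 2.39 (exact p = 0.00303), each the smallest value the design allows. Tert-123 tumours, with 5.18 ± 1.34 TPM of Tert (SD, n = 7), did not differ detectably from Braf tumours, with 4.59 ± 0.603 TPM (SD, n = 4), at a log2 difference of 0.12 (exact p = 0.585). The order of Tert did not follow that of Krt5 within the K5-Tert tumours. Tumour 1 had 73.9 TPM of Tert with 29.2 TPM of Krt5, tumour 4 had 53.4 TPM of Tert with Krt5 listed at 0, and tumours 2 and 3 had 11.2 and 19 TPM of Tert with 0.412 and 1.21 TPM of Krt5. The K5-Tert pool had 125 TPM of Tert with 6.07 TPM of Krt5.

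Against Braf tumours, Tert-123 tumours showed 0 of 7 members past the threshold by limma, where 0.0% of all genes rose and 0.0% fell. 1 member, Krt17, had an unadjusted p under 0.05. Krt17 stood at 4.40 to 13.4 TPM (median 6.32) in Tert-123 tumours, against 12.8, 10.4, 11.5 and 12 TPM in Braf tumours, a log2 difference of -0.66 (SE 0.315, limma adjusted p = 0.9997). 6 of the 7 Tert-123 tumours lay below every Braf tumour and 1 lay above them all. Krt14 was at -1.40 (SE 0.750), Krt7 at -0.33, Krt20 at -0.25, Krt18 at -0.050, Krt8 at 0.0039 and Krt19 at 0.11. Between K5-Tert and Tert-123 tumours, again 0 of 7 passed by limma and 0 had an unadjusted p under 0.05, where 0.76% of genes rose and 29.5% fell. Differences there ran between -0.29 for Krt20 and 0.37 for Krt14, with limma adjusted p-values of 0.469 to 0.882.

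The spread among the 15 tumours differed between members. The highest tumour had 2.14 times the lowest for Krt18, 2.81 times for Krt19, 3.15 times for Krt8, 3.98 times for Krt7 and 6.66 times for Krt20. For Krt17 the ratio was 3.84 and for Krt14 149. Tert-123 tumour 7 had the highest Krt18, Krt8 and Krt20, and K5-Tert tumour 2 the lowest Krt18, Krt8, Krt19, Krt7 and Krt17. The summed level of all members averaged 2283 ± 846 TPM over the 4 K5-Tert tumours, 2580 ± 751 TPM over the 7 Tert-123 tumours and 2637 ± 409 TPM over the 4 Braf tumours (SD), against 2521, 1358 and 1680.4 TPM in the K5-Tert, Tert-123C>T and Wildtype pools.

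The members at low levels were compared by whether the groups overlapped. Of the 41 members under 10 TPM everywhere, 12 were lower in every K5-Tert tumour than in every Braf tumour and 0 were higher (Krt10, Krt12, Krt13, Krt23, Krt34, Krt72, Krt74, Krt75, Krt76, Krt81, Krt86 and Krt90). That is 29.3% lower, against 16.1% of all 12590 genes at such levels that were lower and 0.0556% that were higher. With TMM-type factors it was 7 of 41 (17.1%), against 10.7%. Between 14 and 33 of the 41 were listed at 0 in a K5-Tert tumour, against 3 to 8 in a Braf tumour, and the number of genes at 1 TPM was 10958 to 12699 against 13275 to 13904. Between Tert-123 and Braf tumours 1 of the 41, Krt86, was lower without overlap and 0 were higher, against 0.286% and 0.0715% of genes. Between K5-Tert and Tert-123 tumours 3 were lower (Krt13, Krt36 and Krt90) and 0 higher, against 4.03% and 0.00794%.

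Krt12, the corneal keratin, stood at 0.821, 0, 0.296 and 0 TPM in the K5-Tert tumours, against 2.14, 2.66, 2.06 and 3.23 TPM in the Braf tumours. At the 1 TPM filter it was the only one of 16 members called (log2 difference -1.49, SE 0.339, limma adjusted p = 0.0130), where 15.7% of 14390 genes fell and 0.417% rose. At the same filter Krt36, a hair-type keratin, was the only member called between K5-Tert and Tert-123 tumours (log2 difference -0.84, limma adjusted p = 0.0423), where 20.6% of genes fell and 0.493% rose. It stood at 0, 0.286, 0.112 and 0 TPM in K5-Tert tumours, against 0.372 to 1.73 TPM (median 1) in Tert-123 tumours. Neither Krt12 nor Krt36 reached 1 TPM in a K5-Tert tumour, so both passed the filter through the other tumour groups alone. The filter thus selected on the difference compared, and these calls are no support for it. These levels are near those of undetected genes, and with the depth unknown no limit of detection can be given.

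Genes that work with keratins were followed in lists. For the Braf mutation the counts that follow stand against 15.4% of all 7825 genes that rose and 10% that fell, and with TMM-type factors against 23.9% and 17.2%. Of 18 desmosome and keratin-linker genes 13 were tested for the Braf mutation, and of these 0 rose and 1 fell, with a list median of 0.11 against 0.07 for all genes. The gene that fell was Pkp4, a plakophilin of cell junctions (log2 difference -1.63, limma adjusted p = 0.00046). With TMM-type factors 3 of the 13 rose (Jup, Plec and Dsc2) and 2 fell (Pkp4 and Evpl). Of 10 tested genes for keratin modification, folding and turnover, 2 rose and 1 fell (median -0.15), shares near those of all genes. Tgm2, a crosslinking enzyme, rose by 0.90 and Stub1, a ubiquitin ligase, by 0.74 (limma adjusted p = 0.0367 and 0.0247), and the small heat shock protein Hspb1 fell by 1.56 (limma adjusted p = 0.00127). Of 5 other intermediate filament genes 2 rose, Vim and the nuclear lamin Lmnb1 (1.42), and 0 fell (median 0.77). With TMM-type factors 4 of these 5 rose, Lmnb2 and Nes in addition.

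Of 9 epithelial transcription factor genes tested for the Braf mutation, 2 rose and 1 fell (median -0.11), again near the shares of all genes, 15.4% and 10%. Klf5 rose by 1.31 and Ehf by 1.19 (limma adjusted p = 0.0048 and 0.0116), and Klf4 fell by 2.53 (limma adjusted p = 3.46e-06). Of 6 keratinocyte and squamous markers 3 rose and 0 fell (median 1.33). These were Ivl and Sprr1a, proteins of the cornified envelope, at 2.91 and 3.33 (limma adjusted p = 4.78e-05 and 0.00123), and Tgm1, the enzyme that crosslinks that envelope, at 1.90 (limma adjusted p = 1.17e-05). With TMM-type factors Trp63, which is in both lists, rose as well. Ivl stood at 3.26 to 28.4 TPM in tumours, against 1.12, 0.245 and 0 TPM in the K5-Tert, Tert-123C>T and Wildtype pools. Ivl, Ehf and Trp63 reached 10 TPM in no pool, so they passed the filter through the tumours alone. For these genes the filter thus selected on the difference compared. The squamous markers Sprr1b, Sprr3, Krtdap and Lor were listed at 0 in all 3 pools. Sprr1b, Sprr3 and Krtdap were also at 0 in all 4 K5-Tert tumours, and Sprr1b in all 4 Braf tumours. These zeros therefore do not separate pools from tumours.

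In K5-Tert against Braf tumours, each of the 5 lists had, as deposited, 0 members higher and at least 1 lower, where 0.587% of all 7498 genes rose and 21.9% fell. The transcription factor list had 4 of 9 lower: Trp63, a transcription factor of basal keratinocytes (log2 difference -1.08), Grhl2 (-1.26), Esrp1 (-1.09) and Esrp2 (-0.92), with limma adjusted p-values of 0.0495, 0.0209, 0.0364 and 0.0445. Its median was -0.91, against -0.48 for all genes. With TMM-type factors, where 7.68% of all genes rose and 7.04% fell, 0 of these 4 passed. Trp63 stood at 13.4, 3.44, 4.49 and 3.06 TPM in the K5-Tert tumours, against 8.43, 15.8, 16 and 9.53 TPM in the Braf tumours, so that again tumour 1 lay apart from the other 3. Also lower were Dsc2 of the desmosome (-1.07), the keratin-binding Tchp (-1.43), the intermediate filament gene Nes (-1.14) and Ivl (-2.03, limma adjusted p = 0.00429). With TMM-type factors the calls of Dsc2 and Nes were lost, while Tchp and Ivl remained lower at -0.95 and -1.53. Ivl stood at 3.26 to 4.48 TPM in the K5-Tert tumours, so it passed the filter of 10 TPM through the other tumour groups alone. The filter thus selected on the difference compared, and the Ivl call is no support for it under either scaling. The TMM-type factors also made Tgm2, the lamin gene Lmna and Klf4 higher, at 0.80, 0.80 and 0.99 (limma adjusted p = 0.0476, 0.0376 and 0.0229). In K5-Tert against Tert-123 tumours the desmosome list had 3 lower (Dsc2, Ppl and Jup, at -1.08, -1.03 and -0.68), the transcription factor list 3 (Grhl2, Esrp1 and Esrp2), and the other lists 1 each, where 29.5% of all genes fell. With TMM-type factors the desmosome and transcription factor lists had 0 lower. In Tert-123 against Braf tumours 0 genes of these 5 lists passed by limma.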

How the data were processed

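Per the series' design text, 9000 to 20000 sorted cells gave each library, with low-input chemistry, 14 PCR cycles and paired reads of 100 bp. The deposited values were treated as TPM because every column sums to 1000000, although the table is called normalized counts. Neither aligner, genome build nor annotation is given in the sources used here. No counts were used here, so depth is unknown and no counting interval is given. Of 23652 entries, 26 whose symbols had become calendar dates were dropped (0.0455% of a library's TPM at most). 50 of the 51 members matched a mouse symbol of RefSeq, and KRT85 did not. Chromosomes and promoters came from RefSeq (GRCm38.p6), and no coordinates of the files were used.

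Groups came from the genotype labels. Libraries were numbered within a group in accession order, and these numbers pair nothing. The labels do not say that libraries of a group came from separate animals, so p-values measure the spread between these samples. limma 3.58.1, run in R 4.3.3, was applied to log2(TPM + 1) (mean-variance trend, no robust step) and Benjamini-Hochberg adjustment over all genes tested. Tests were two-sided, at 0.05. Tables and figures used Python 3.11.15, pandas 2.3.3, scipy 1.17.1 and matplotlib 3.10.9. Fits were tested on simulated data. The members, lists and tests were chosen with earlier results of these data known. All members are counted. Members with a mean of at least 10 TPM, those called in any comparison, Krt5 and Krt14 are given by library, beside Tert, Vim and up to 4 called genes of each list. One gene of the modification and turnover list is not reported here and was left out of that list's counts and median. Krt15, Krt17, Krt80 and the genes Col17a1, Dsg3 and Malat1 were added after values were seen, and comparisons between tumour groups share the Braf and Tert-123 libraries. Alternatives were pseudocounts of 0.5 and 5, no filter or 1 TPM, TMM-type, quantile and Rpph1-free scaling, removal of a trend with transcript length, a covariate for Xist, fits restricted to the compared groups, and each library left out. Added after the data were seen were the removal of the 3 K5-Tert tumours with low Malat1, TMM-type factors without K5-Tert tumour 1, and the same alternatives at the 1 TPM filter.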

Additional observations from a re-analysis of the deposited data

Results flagged for a closer look

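In 10 keratin genes and 3 tumour groups, 30 groups of libraries in all, 4 had 1 library far from the others by Dixon's criterion, which chance meets in about 1 of 20 groups. 3 of the 4 were the same library, K5-Tert tumour 1, with Krt14 at 61.8 TPM, Krt5 at 29.2 TPM and Krt15 at 13.5 TPM. The other was Krt19 in Braf tumour 1, at 279 TPM, against 319 to 324 TPM in the other 3 Braf tumours.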

How the results depend on the processing

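No paired analysis was possible because the labels carry no replicate numbers. The rise of Krt20 with the Braf mutation passed in all 28 alternatives (log2 5.29 to 8.63). Except for the setting with no filter, these alternatives kept a filter that Krt20 passed through the tumours alone. The number of keratins higher with the Braf mutation was 1, but 4 with no filter or 1 TPM, 3 with TMM-type factors or without Rpph1, 2 with quantile normalization or the length trend removed, 4 without the 3 low-Malat1 tumours, and 1 to 3 with a library left out. The number lower was 0, but 2 with no filter and 3 at 1 TPM or without Rpph1. K5-Tert against Braf tumours gave 2 lower with no filter, 1 at 1 TPM and 0 to 2 with a library left out. K5-Tert against Tert-123 tumours gave 3 and 1 at those filters. Krt5 in Tert-123 against Braf tumours passed under quantile normalization (-0.92) and without Rpph1 (-1.23, exact p = 0.0485 in both).

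Signs turned as follows, on the log2 scale, where the cause was not tested. In K5-Tert against Braf tumours, TMM-type factors gave Krt18 0.35, Krt8 0.35, Krt7 0.0042 and Krt20 0.038, and without K5-Tert tumour 1 in addition Krt18 0.38, Krt8 0.37 and Krt20 0.11. Removing the length trend gave Krt18 0.055 and Krt8 0.14, Xist gave Krt19 -0.23 and quantile normalization Krt17 0.040. Without the low-Malat1 tumours, which leaves 1 K5-Tert tumour assumed to vary like the rest, Krt18 was at 0.26, Krt8 0.30, Krt7 0.13, Krt17 0.39 and Krt14 2.48. In Tert-123 against Braf tumours Krt8 was at -0.079 (quantile), -0.080 (without Rpph1), -0.00023 (length) and -0.25 (Xist), and Krt19 at -0.055 (Xist). In K5-Tert against Tert-123 tumours, Krt18, Krt8, Krt19, Krt7 and Krt20 were at 0.39, 0.34, 0.52, 0.32 and 0.28 with TMM-type factors, 0.42, 0.36, 0.46, 0.28 and 0.36 with these and no K5-Tert tumour 1 (Krt14 -0.30), 0.12, 0.14, 0.27, 0.31 and 0.081 with the length trend removed, and 0.31, 0.29, 0.72, 0.46 and 0.056 without the low-Malat1 tumours. Without Rpph1 Krt18, Krt8 and Krt19 were at 0.069, 0.015 and 0.20, under quantile normalization Krt19 at 0.020, and with Xist Krt17 at -0.049. For the Braf mutation Krt8 was at 0.16 and Krt17 at 0.13 without the low-Malat1 tumours.

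Leaving out each library gave these ranges. K5-Tert against Braf tumours: Krt19 -0.20 to 0.30, Krt17 -0.91 to -0.34, Krt14 -2.19 to -0.55, Krt5 -1.70 to -0.059 and Tert 2.09 to 2.96. Tert-123 against Braf tumours: Krt18 -0.18 to 0.039, Krt8 -0.13 to 0.11 and Krt5 -1.11 to -0.62. K5-Tert against Tert-123 tumours: Krt19 -0.31 to 0.19, Krt7 -0.49 to 0.10, Krt17 -0.25 to 0.33, Krt14 -0.79 to 0.84 and Krt5 -0.79 to 0.85. Braf mutation: Krt18 0.31 to 0.75, Krt8 -0.33 to 0.29, Krt7 0.61 to 1.44, Krt17 -0.42 to 0.088, Krt15 -3.60 to -2.16, Krt5 -2.53 to -1.37, Krt12 0.75 to 1.46 and Krt10 0.79 to 1.17. Tert in K5-Tert against Braf tumours missed the threshold when a Braf tumour was left out (exact p = 0.0571).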
